A study of Homo sapiens with 6 samples.

Results

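Toll-like receptors and the proteins that work with them were followed through 10 genes: the receptors TLR1, TLR2, TLR4, TLR5, TLR6, TLR7 and TLR8, the co-receptors CD14 and LY96, and the adaptor MYD88. They were picked by name, as the rows of the deposited table whose gene symbol matched, and all 10 were found among 32322 gene rows. RNA had been sequenced from human cells that the titles call MDA-MB-231, an established triple-negative breast cancer line of WT genotype kept in L-15 medium. The groups were 3 libraries from cells given compound 28 at 500 nM for 4 h and 3 libraries from cells given DMSO, for which no time is stated. In the title of the series compound 28 is called a CDK9 degrader, CDK9 being a kinase that lets paused RNA polymerase II move into productive elongation. Nothing in the labels says that replicates were separate cultures, so p-values reflect the spread among these libraries alone, which may be technical.

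Toll-like receptors are membrane proteins that recognise microbial molecules, some at the cell surface and others in endosomes. TLR2 pairs with TLR1 or TLR6 to bind bacterial lipopeptides, TLR4 binds lipopolysaccharide together with LY96 (MD-2) after CD14 has handed it over, TLR5 binds flagellin, and TLR7 and TLR8 sense single-stranded RNA. On binding, these receptors recruit the adaptor MYD88, whose kinase complex turns on NF-kB, AP-1 and interferon regulatory factors. The pathway is best known from monocytes, macrophages and neutrophils, while epithelial cells usually carry a narrower set of receptors.

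The promoters of TLR2, TLR4, CD14 and MYD88 are shown because these genes include the most abundant receptor, the receptor with the deepest fall, the gene with the larger rise and the shared adaptor. Each is the 250 bases before the RefSeq start site on GRCh38.p14, written 5′ to 3′ on the gene's own strand. The windows are chr4:153684030-153684279 (plus strand) for TLR2, chr9:117704153-117704402 (plus) for TLR4, chr5:140633176-140633425 (minus) for CD14 and chr3:38138411-38138660 (plus) for MYD88. Capitals mark matches on either strand to the motifs named after the sequences.
TLR2: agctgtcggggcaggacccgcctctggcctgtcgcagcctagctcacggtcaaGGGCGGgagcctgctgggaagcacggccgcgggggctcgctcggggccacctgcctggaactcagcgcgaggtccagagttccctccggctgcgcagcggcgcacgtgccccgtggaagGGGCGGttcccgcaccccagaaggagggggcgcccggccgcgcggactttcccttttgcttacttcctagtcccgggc
TLR4: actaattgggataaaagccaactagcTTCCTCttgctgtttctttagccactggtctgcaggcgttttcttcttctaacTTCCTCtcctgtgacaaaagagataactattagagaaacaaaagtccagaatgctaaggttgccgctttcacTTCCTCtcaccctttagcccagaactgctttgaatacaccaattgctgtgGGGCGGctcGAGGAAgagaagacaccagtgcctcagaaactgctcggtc
CD14: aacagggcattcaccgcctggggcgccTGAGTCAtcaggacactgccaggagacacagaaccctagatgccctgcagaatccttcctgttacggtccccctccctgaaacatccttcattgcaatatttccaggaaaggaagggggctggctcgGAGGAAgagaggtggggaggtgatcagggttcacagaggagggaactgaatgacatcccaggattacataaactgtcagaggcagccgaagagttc
MYD88: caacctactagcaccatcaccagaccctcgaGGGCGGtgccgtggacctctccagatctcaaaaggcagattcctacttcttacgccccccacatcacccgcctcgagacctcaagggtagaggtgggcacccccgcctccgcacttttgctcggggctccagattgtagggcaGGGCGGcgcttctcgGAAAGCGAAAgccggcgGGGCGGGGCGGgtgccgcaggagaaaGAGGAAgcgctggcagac
The motifs searched on both strands were GAGGAA (the core of a PU box, bound by SPI1), TGANTCA (AP-1), GGGCGG (GC box), TATAAA (the core of a TATA box), and the consensus sequences of the interferon-stimulated response element and of NF-kB. Windows of 7 of the 10 genes were searched, those of TLR2, TLR4, TLR5, TLR6, TLR8, CD14 and MYD88. No RefSeq promoter was found for TLR1 and TLR7, and LY96 was left out of the search. The TLR4 window holds GAGGAA 4 times and GGGCGG once. The TLR2 window holds 2 copies of GGGCGG, and the MYD88 window 4, of which 2 overlap, together with 1 GAGGAA and 1 interferon-stimulated response element. The CD14 window has no GC box and holds 1 TGANTCA and 1 GAGGAA. Over the 7 windows, GAGGAA was found in 4 (TLR4, TLR6, CD14 and MYD88), against 23.6% of 35116 windows of the same length, and GGGCGG in 4 (TLR2, TLR4, TLR5 and MYD88), against 42.6%. TGANTCA was in 1, against 6.57% of windows, and the interferon-stimulated response element in 1, against 3.02%. TATAAA and the NF-kB consensus were in 0 of the 7, against 10.7% and 5.21%. These are letter matches within 250 bases and describe no binding.

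Reads assigned to genes came to between 28505897 and 34062330 in the compound 28 libraries and between 37186728 and 54830987 in the DMSO libraries. Pearson's r on log2 values across genes was 0.987 to 0.99 within compound 28, 0.985 to 0.993 within DMSO and 0.789 to 0.814 between them. The label of the cells was checked against markers, and the data go against it. Of 30 genes chosen as breast epithelial or MDA-MB-231 markers, 24 have a row. Of those, 7 are under 1 CPM (counts scaled to a library's total of gene reads) in every library. Among them, EPCAM, CDH1, CAV1 and MET have at most 4 reads in any library. The list mixes epithelial genes with genes of the line, so low EPCAM and CDH1 alone do not speak against the label. Another 11 of the 24, such as VIM and CD44, reach 5 CPM in each group. The list sums to 3475 to 3733 CPM with compound 28 and 2950 to 2960 CPM with DMSO. Of 26 myeloid markers all have a row, and 20 reach 5 CPM with compound 28 and 21 with DMSO. Their summed level was 7012 to 7299 CPM with compound 28 and 6345 to 6978 CPM with DMSO. PTPRC, the leukocyte surface phosphatase, had 3102 ± 254 normalized counts with compound 28 and 3419 ± 873 with DMSO (SD, n = 3 each). The summed B cell markers stayed at 9.44 to 10.9 CPM and 6.68 to 8.15 CPM, fibroblast and endothelial markers at 1.03 to 1.68 CPM and 0.657 to 1.29 CPM, erythroid and megakaryocyte markers at 49.3 to 76.1 CPM and 43.1 to 50.6 CPM, and T and NK cell markers at 471 to 554 CPM and 322 to 373 CPM, in each pair with compound 28 before DMSO. CD4, which myeloid cells also express, made up most of the T and NK cell sum (485 CPM with compound 28 and 316 CPM with DMSO), while CD3E, CD3G, CD8B and TRAC had at most 9 reads in any library. Compound 28 replicate 2 stood apart in globin RNA, with 695 reads of HBB, against 0 in the other compound 28 libraries and at most 1 in the DMSO libraries. The source and cell line labels also differ between samples, with MDA-MB-231 on 1 and numbers up to MDA-MB-236 on the others. The cells are called here by the titles, as cells labelled MDA-MB-231, and no other type is assigned to them. In bulk RNA, fewer cells of a type and less RNA per cell cannot be told apart.

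Of the 10 genes, 6 fell with compound 28 (TLR1, TLR2, TLR4, TLR5, TLR6 and MYD88), 2 rose (CD14 and LY96), and 2 had too few reads to be tested (TLR7 and TLR8). The test was limma-trend on log2(normalized count + 1), with a call at a Benjamini-Hochberg adjusted p under 0.05 over 18278 genes. In the same test 72.8% of all genes were called, with 37.3% lower and 35.5% higher, so a call by itself is common in these libraries. TLR1, TLR2, TLR4 and MYD88 each fell at least 4-fold, which 9.79% of all tested genes did. TLR5 did too, but it passed the filter on low counts through the DMSO libraries alone. The 8 tested genes did not overlap between the groups in any case, where 38.9% of all genes had every compound 28 library below every DMSO library and 36.9% had every one above. The median change of all genes was -0.03 on the log2 scale with the authors' factors, and changes are given on that scale. The direction of all 8 genes was the same under each of the other 6 scalings tried, but LY96 was not called under 2 of them. Of 25 tested myeloid markers, 11 rose and 8 fell (median log2 change 0.25), and their part in the changes of the receptor genes was not tested.

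**Figure D1:**
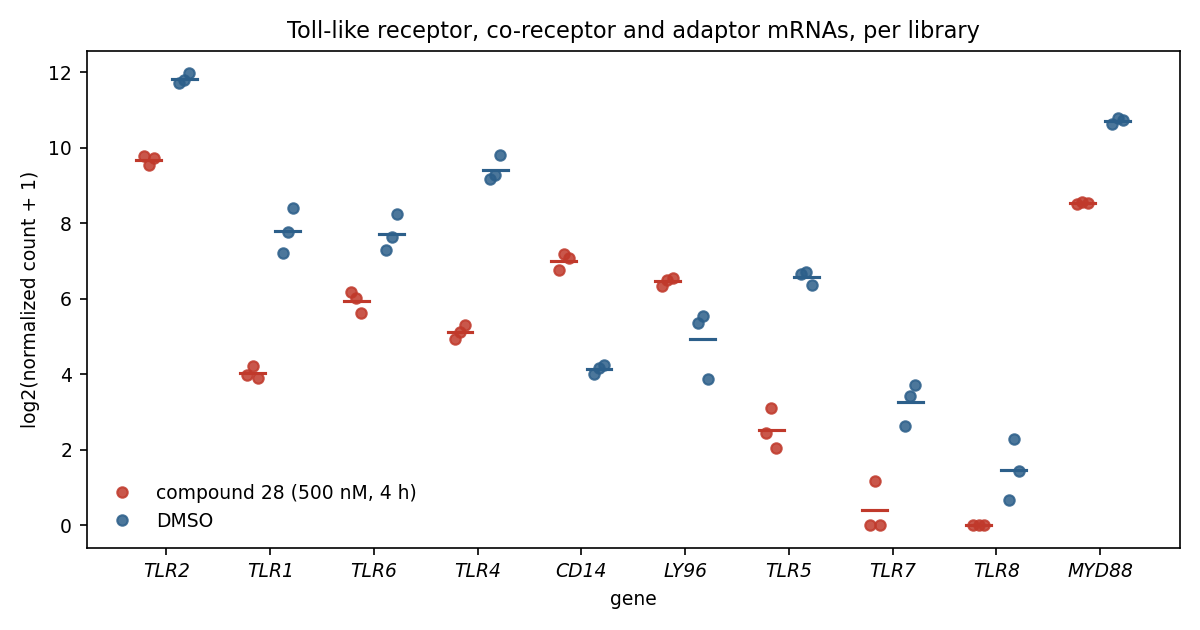
Normalized read counts of the 10 genes in each library on a log2 scale with 1 added (vertical axis), grouped by gene (horizontal axis), with compound 28 at 500 nM for 4 h in red and left and DMSO in blue and right. Points are libraries and bars are group means of the log2 values. CD14 and LY96 are the genes whose red points lie above the blue ones.

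TLR2, the receptor that binds lipopeptides as a heterodimer, was the most abundant of the 7 receptors in both groups. It had 884, 747 and 849 normalized counts with compound 28, against 3387, 3585 and 4028 with DMSO. The groups lay far apart, and replicates stayed close to each other. TLR2 fell 4.43-fold (log2 change -2.15 ± 0.10, SE; adjusted p = 7.5e-08, limma).

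TLR1, the partner of TLR2 for triacylated lipopeptides, had 14.7, 17.6 and 14.0 normalized counts with compound 28, against 148, 216 and 337 with DMSO. With compound 28 these are 10, 14 and 9 reads, so the size of the fall and the ratios of TLR1 below rest on few reads. The DMSO libraries spread widely, with replicate 3 highest. TLR1 fell 13.6-fold (log2 change -3.76 ± 0.32, SE; adjusted p = 2.5e-06, limma), which placed it 291st from the lowest of all tested genes. TLR6, the partner of TLR2 for diacylated lipopeptides, had 72.0, 64.2 and 48.2 normalized counts with compound 28, against 156, 198 and 304 with DMSO. Its DMSO libraries ranked as those of TLR1 did. TLR6 fell 3.45-fold (log2 change -1.79 ± 0.28, SE; adjusted p = 0.00018, limma), the smallest of the 6 falls.

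TLR1 and TLR6 lie side by side and overlap on the same strand in GENCODE release 29, and 5.33% of the 50-base words of TLR1 exons occur in TLR6. Reads that both genes could claim may have been dropped or split in the authors' counting, so both levels carry that uncertainty. Both genes fell, but not by the same amount. The ratio of TLR1 to TLR6, per kilobase of exon within a library, was 0.272, 0.365 and 0.386 with compound 28, against 1.26, 1.45 and 1.47 with DMSO. That is 4.13-fold lower with compound 28 (exact permutation p = 0.1, two-sided, the smallest that 3 against 3 allows; adjusted over the 9 ratios compared here it is 0.129). Within each library and per kilobase, TLR6 was therefore the more abundant of the 2 partners with compound 28, and TLR1 with DMSO. The DMSO order rests on the annotated exon lengths, 4535 bases for TLR1 and 6035 for TLR6. Reads with DMSO were 255, 334 and 391 for TLR1, against 270, 306 and 353 for TLR6. TLR1 over TLR2 was 3.24-fold lower with compound 28 (0.0217 ± 0.0047 against 0.0719 ± 0.0232; SD, n = 3 each; exact permutation p = 0.1). TLR6 over TLR2 was 0.0645 ± 0.0135 with compound 28 and 0.0510 ± 0.0130 with DMSO (SD, n = 3 each), and its libraries overlapped (exact permutation p = 0.2).

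TLR4, the lipopolysaccharide receptor, had the deepest fall among the 8 tested genes. It had 29.4, 34.0 and 38.9 normalized counts with compound 28, against 574, 619 and 895 with DMSO. The groups lay far apart, with the lowest DMSO library well above the highest compound 28 library. TLR4 fell 19.6-fold (log2 change -4.29 ± 0.22, SE; adjusted p = 1.0e-07, limma), the 139th lowest change of all tested genes. GENCODE release 29 places a coding gene with no row in the deposited table, AL160272.2, over TLR4 on the same strand, and 3.83% of the 50-base words of TLR4 occur in it.

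The 2 genes that rose encode the partners of TLR4. CD14, a surface protein that passes lipopolysaccharide to TLR4, had 109, 145 and 134 normalized counts with compound 28, against 15.1, 16.8 and 18.1 with DMSO. All 3 DMSO libraries were low and close together. CD14 rose 7.33-fold (log2 change 2.87 ± 0.27, SE; adjusted p = 4.7e-06, limma), and 10.7% of all tested genes were called with a rise of at least 4-fold. LY96, which encodes MD-2, the subunit that holds lipopolysaccharide on TLR4, had 79.3, 89.3 and 93.3 normalized counts with compound 28, against 40.0, 45.3 and 13.8 with DMSO. DMSO replicate 3 stood below the other two, with 16 reads of LY96. LY96 rose 2.90-fold (log2 change 1.54 ± 0.41, SE; adjusted p = 0.0063, limma). Without DMSO replicate 3 its log2 change was 1.02. The call of LY96 ended when libraries were scaled on mitochondrially encoded mRNAs (log2 change 0.11, adjusted p = 0.79) or on ribosomal protein mRNAs (0.45, adjusted p = 0.29), whereas CD14 stayed called as higher (1.46 and 1.80).

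Ratios within a library do not depend on the scaling. The ratio of CD14 to TLR4 per kilobase of exon was 26.0, 30.0 and 24.2 with compound 28, against 0.185, 0.191 and 0.142 with DMSO. TLR4 thus outnumbered CD14 in all 3 DMSO libraries and CD14 outnumbered TLR4 in all 3 compound 28 libraries. The shift was 155-fold (exact permutation p = 0.1, the smallest possible, and 0.129 adjusted over the 9 ratios). LY96 over TLR4 was 59.0, 57.5 and 52.5 with compound 28, against 1.52, 1.60 and 0.337 with DMSO, a 60.1-fold shift (exact permutation p = 0.1) that was 36.1-fold without DMSO replicate 3. Per kilobase, the level of LY96 was above that of TLR4 in 2 of the 3 DMSO libraries and below it in replicate 3. That order rests on the annotated exon lengths, 607 bases for LY96 and 13272 for TLR4. With DMSO, reads were 69, 70 and 16 for LY96, against 991, 956 and 1038 for TLR4. In a related pair, CD180 (RP105), a homologue of TLR4, and its accessory protein LY86 (MD-1), the ratio of LY86 to CD180 was 3.94, 3.32 and 2.98 with compound 28, against 1.25, 1.08 and 0.729 with DMSO, 3.42-fold higher (exact permutation p = 0.1).

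**Figure D2:**
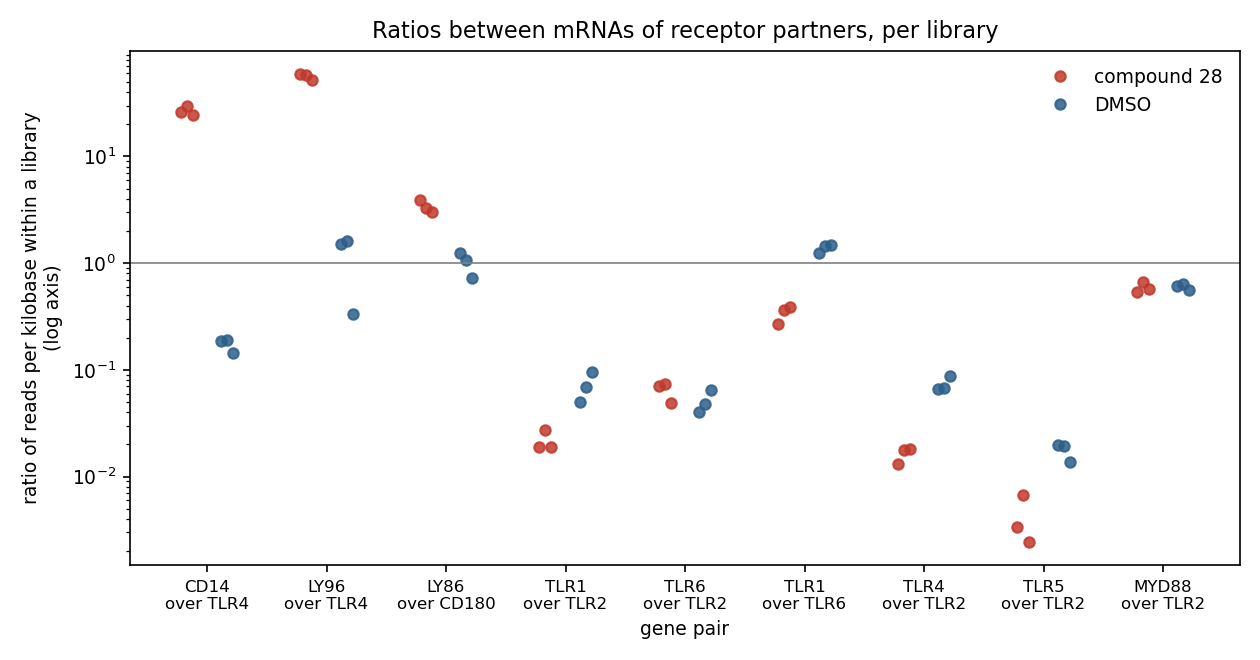
Ratio of the reads per kilobase of exon of 2 genes within a library (vertical axis, log scale) for 9 gene pairs (horizontal axis), with compound 28 in red and left and DMSO in blue and right. Each point is a library, and the grey line marks equal levels. The CD14 to TLR4 ratio lies at 24.2 to 30.0 with compound 28 and 0.142 to 0.191 with DMSO, while the MYD88 to TLR2 ratio overlaps.

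TLR5, the flagellin receptor, had 4.41, 7.55 and 3.11 normalized counts with compound 28, against 99.6, 104 and 81.9 with DMSO. With compound 28 these are 3, 6 and 2 reads. TLR5 fell 16.6-fold (log2 change -4.06 ± 0.38, SE; adjusted p = 4.4e-06, limma). It passed the filter through the DMSO libraries alone, so it could only have been tested as a gene that was higher there. Per kilobase, TLR5 over TLR2 was 4.54-fold lower with compound 28 and TLR4 over TLR2 4.55-fold lower (exact permutation p = 0.1 for each). With 1 library left out, the first ranged from 3.64-fold to 6.05-fold and the second from 4.09-fold to 4.80-fold.

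TLR7 and TLR8, the endosomal receptors for single-stranded RNA, were close to the limit of detection. TLR7 had 0, 1 and 0 reads with compound 28, against 9, 15 and 14 with DMSO. Corrected for the size factors, the DMSO level was 18.2 times the compound 28 level, with an exact 95% interval of 3.07 to 736 that covers counting error only. TLR7 reached the filter level of 0.281 CPM in 2 DMSO libraries where 3 were needed. In the fit without a filter its log2 change was -2.86 (adjusted p = 0.0023, limma), and the authors' deposited table gives -4.14 with an adjusted p of 0.019. TLR8 had 0 reads in each compound 28 library, against 1, 6 and 2 with DMSO. Set against a floor of 3 reads over the compound 28 group, and taking the 9 DMSO reads as exact, TLR8 was at least 1.43-fold lower. It was not called without the filter (adjusted p = 0.051, limma). TLR8 overlaps TLR8-AS1 on the opposite strand, and the strand setting of the counting was not given.

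MYD88, the adaptor that these receptors share, had 361, 380 and 368 normalized counts with compound 28, against 1590, 1762 and 1707 with DMSO. Its replicates were the closest of the 8 tested genes, with a group mean of 370 ± 9.35 with compound 28 and 1686 ± 88.2 with DMSO (SD, n = 3 each). MYD88 fell 4.55-fold (log2 change -2.19 ± 0.10, SE; adjusted p = 5.8e-08, limma). MYD88 and TLR2 kept nearly the same ratio: 0.534, 0.665 and 0.568 with compound 28, against 0.614, 0.643 and 0.554 with DMSO (exact permutation p = 0.8). A p of that size does not show that the ratio was the same.

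Among 10547 other genes of at least 5 CPM, the 3 with the smallest Euclidean distance to MYD88, over log2 values of the 6 libraries centred on each gene's mean, were CHMP7 (distance 0.11), HMGXB3 (0.13) and IRF2BPL (0.13). Their log2 changes were -2.16, -2.14 and -2.13. The 3 nearest to TLR2 were KCTD18 (0.10), CENPA (0.11) and NLRX1 (0.16), with log2 changes of -2.09, -2.11 and -2.04. With 6 libraries in 2 groups, such likeness mostly restates an equal difference between the groups.

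**Figure D3:**
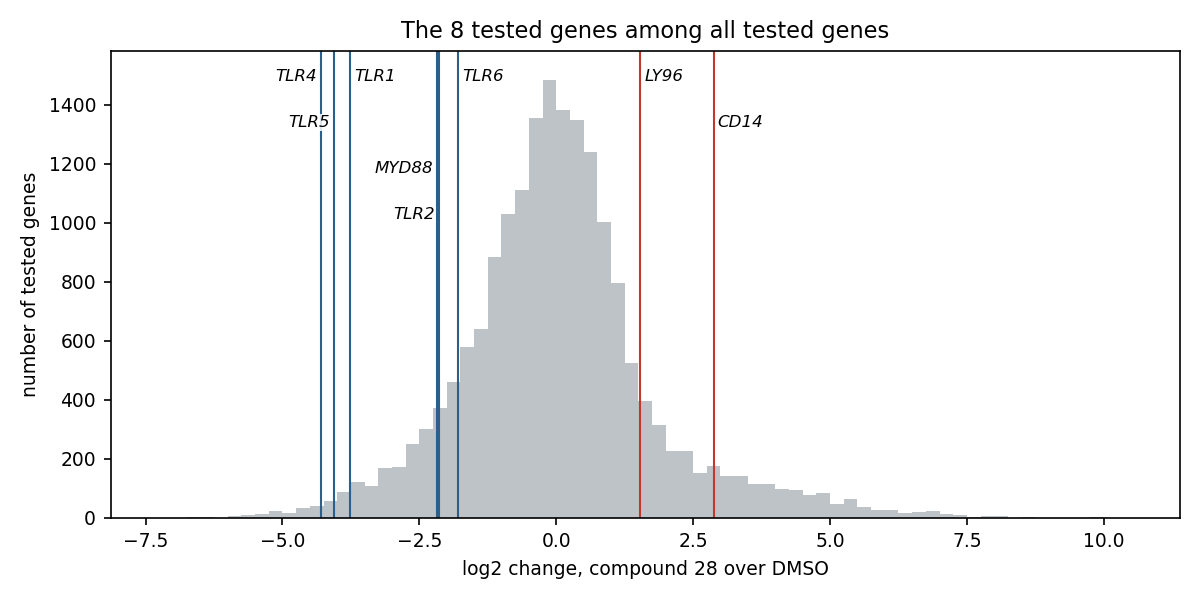
Number of tested genes (vertical axis) by log2 change, compound 28 over DMSO (horizontal axis, bins of 0.25), for all 18278 tested genes in grey, with the 8 tested receptor, co-receptor and adaptor genes as lines, blue if lower with compound 28 and red if higher. TLR4, TLR5 and TLR1 lie in the left tail at -4.29, -4.06 and -3.76, and CD14 lies to the right at 2.87.

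Levels of different genes were compared as RPKM, reads per kilobase of exon scaled to a library's total of gene reads and not by the authors' factors. With compound 28 the order was TLR2 (3.65), LY96 (3.31), MYD88 (2.14), CD14 (1.58), TLR6 (0.235), TLR1 (0.0786), TLR4 (0.0591), TLR5 (0.0150), TLR7 (0.0019) and TLR8 at 0. Only TLR2 and LY96, and TLR7 and TLR8, overlapped with their neighbours in that order. With DMSO the order was TLR2 (22.2), MYD88 (13.4), LY96 (1.73), TLR4 (1.65), TLR1 (1.62), TLR6 (1.15), TLR5 (0.387), CD14 (0.279), TLR7 (0.0545) and TLR8 (0.0151). There the ranges of LY96 and TLR4, of TLR4 and TLR1 and of TLR1 and TLR6 overlapped, so these ranges do not order the neighbours. Per kilobase, TLR1 was above TLR6 within each DMSO library, an order that rests on the annotated lengths. CD14 went up the order to the 4th place with compound 28, against the 8th with DMSO. TLR4 stood 7th with compound 28, against 4th with DMSO. The exon length of TLR4 used here was 13272 bases, the longest of the 10 genes, and that of LY96 was 607, so these levels depend on the annotated lengths. All 10 genes together summed to 36.2, 34.7 and 34.9 CPM with compound 28, against 190, 210 and 231 CPM with DMSO. TLR2 made up 50.3% to 56.9% of them with compound 28 and 54.4% to 56.3% with DMSO.

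The scaling moved the size of every change, as the plot of changes by scaling shows. Scaling by library sizes only put the median gene at a log2 change of -0.48, upper-quartile factors put it at 0.16, the sum of 80 ribosomal protein mRNAs at -1.13 and the sum of 13 mitochondrially encoded mRNAs at -1.47. Of the tested genes as a whole, 4218 were higher and 9302 lower with library sizes only, 7568 and 5763 with upper-quartile factors, 2245 and 12397 with ribosomal protein scaling and 1810 and 13885 with mitochondrial scaling, against 6487 and 6813 with the authors' factors. Over these scalings and the other alternatives, TLR4 ranged from -5.72 to -4.10, TLR2 from -3.60 to -1.95, MYD88 from -3.64 to -1.99, TLR6 from -3.22 to -1.52, TLR1 from -5.16 to -3.46, TLR5 from -5.35 to -3.48 and CD14 from 1.46 to 3.07 on the log2 scale. All of these stayed called wherever they were tested. Relative to the median gene, the median of the 8 tested genes was lower by 2.13 with the authors' factors and by 2.15 with mitochondrial scaling on the log2 scale. The share of reads that HTSeq's summary rows held was 40.4% to 46.9% with compound 28 and 30.4% to 32.8% with DMSO, and its part in these values was not tested.

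**Figure D4:**
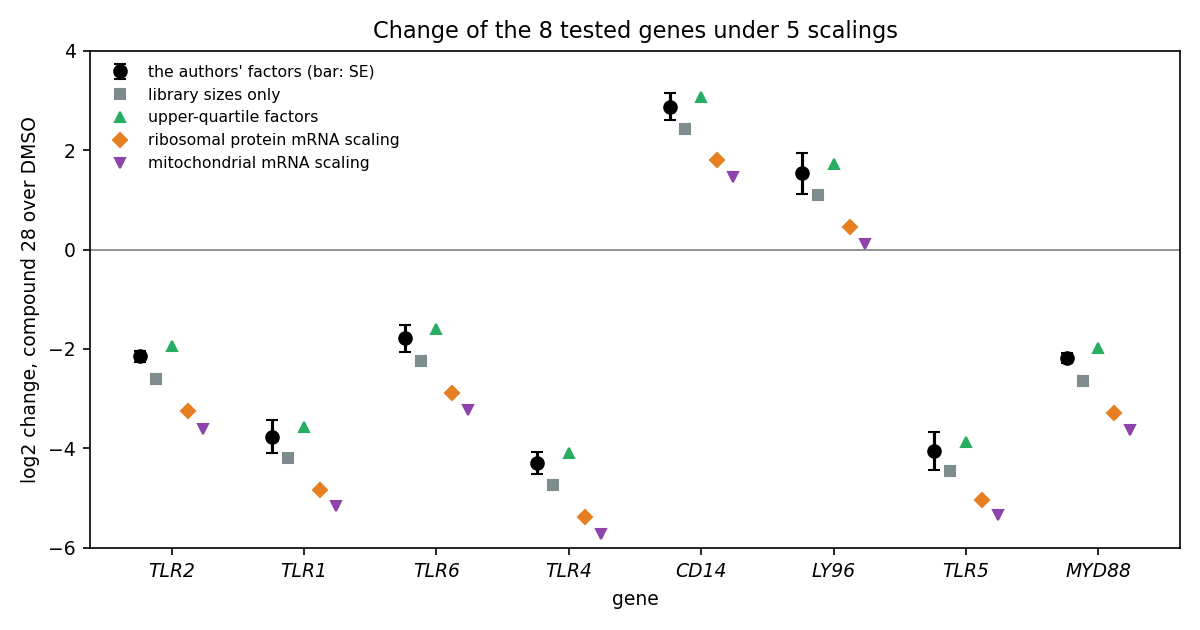
Log2 change, compound 28 over DMSO (vertical axis), of the 8 tested genes (horizontal axis) with the authors' factors (black, with the standard error) and under 4 other scalings. CD14 stays above 0 throughout, LY96 comes to 0.11 with mitochondrial mRNA scaling, where it is not called, and the other 6 stay below 0.

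The fold changes in the authors' deposited table were -3.91 for TLR1, -2.15 for TLR2, -4.35 for TLR4, -4.21 for TLR5, -1.83 for TLR6, 2.96 for CD14, 1.39 for LY96 and -2.19 for MYD88 on the log2 scale. For TLR8 the authors' deposited table holds a p of 0.26 and no adjusted p.

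Neighbouring genes did not all move with the members. The next coding gene upstream of CD14 on its strand, NDUFA2, had 1293 ± 7.17 normalized counts with compound 28 and 928 ± 82.6 with DMSO (log2 change 0.48). That of LY96, TMEM70, had 656 ± 77.5 with compound 28 and 2050 ± 56.7 with DMSO (log2 change -1.65), the opposite direction to LY96. That of MYD88, DLEC1, had 130 ± 14.8 with compound 28 and 40.6 ± 5.86 with DMSO (log2 change 1.66), opposite to MYD88. That of TLR2, TMEM131L, had 305 ± 70.5 with compound 28 and 1160 ± 217 with DMSO (log2 change -1.93). For both TLR1 and TLR6 it was TMEM156, with 54.9 ± 5.38 with compound 28 and 52.1 ± 11.45 with DMSO (log2 change 0.09), which was not called. For TLR7 it was PRPS2, with 965 ± 84.8 with compound 28 and 1729 ± 92.6 with DMSO (log2 change -0.84; SD, n = 3 each throughout). The part of transcription from neighbours in these counts was not tested.

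Other genes of the pathway, taken from fixed lists by role, went both ways. Each count below is set against all 18278 tested genes, of which 35.5% rose and 37.3% fell with a median log2 change of -0.03. Of 7 other Toll-like receptor genes and receptor partners, 5 were tested, and 3 rose and 2 fell (median 1.14). TLR9, the receptor for unmethylated DNA, had 21.1 ± 9.01 normalized counts with compound 28 and 5.89 ± 1.61 with DMSO (SD, n = 3 each; log2 change 1.63, adjusted p = 0.0072, limma), a rise not called under ribosomal protein or mitochondrial scaling (0.63 and 0.31). TLR9 passed the filter through the compound 28 libraries alone, and without it 2 of the list rose and 2 fell (median 0.25). LBP, the serum protein that delivers lipopolysaccharide to CD14, rose 4.68-fold (log2 change 2.23), a call lost under mitochondrial scaling (0.85, adjusted p = 0.058, limma). LBP had 16, 11 and 14 reads with DMSO, too few for the DMSO libraries alone to pass the filter. LY86 rose 2.20-fold, with 2438 ± 133 normalized counts with compound 28 and 1123 ± 219 with DMSO (SD, n = 3 each), but was lower under mitochondrial scaling (log2 change -0.32) and not called under ribosomal protein scaling (0.03). CD180 fell by 0.64 and CD36, a scavenger receptor that assists TLR2, fell by 0.70 on the log2 scale. TLR3, the receptor for double-stranded RNA, and TLR10 had too few reads to be tested.

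Of 13 genes for chaperones, proteases and transporters that bring receptors to the surface or to endosomes, 5 rose, 5 fell and 3 were not called (median -0.26, or -0.01 without LGMN, which passed the filter through the DMSO libraries alone). HSP90B1 and CNPY3, the chaperone and co-chaperone that fold most Toll-like receptors, had log2 changes of 0.62 and 0.44 with the authors' factors, but -0.83 and -1.01 under mitochondrial scaling. UNC93B1, which escorts endosomal receptors, fell by 0.57 and SLC15A4, an endolysosomal transporter needed for TLR7 and TLR9 signals, fell by 2.21 on the log2 scale. CTSK, a lysosomal cathepsin, rose 9.76-fold, with 1028 ± 79.4 normalized counts with compound 28 and 105 ± 9.96 with DMSO (SD, n = 3 each; adjusted p = 4.5e-08, limma).

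Of 26 further adaptors and signalling kinases, 10 rose, 12 fell and 4 were not called (median -0.20). TICAM1, the adaptor of TLR3 and TLR4 that does not need MYD88, fell 2.07-fold, with 287 ± 30.4 normalized counts with compound 28 and 594 ± 57.2 with DMSO (SD, n = 3 each). TICAM2, which links TICAM1 to TLR4, moved the other way, with 44, 64 and 43 reads with compound 28, against 6, 0 and 0 with DMSO (adjusted p = 1.5e-05, limma). It passed the filter through the compound 28 libraries alone and could only have been tested as higher there. Without it, 9 of the list rose, 12 fell and 4 were not called (median -0.23). The falls still include PELI1, with 9, 3 and 0 reads with compound 28, against 162, 175 and 183 with DMSO. It passed the filter only with the help of the DMSO libraries. The exons of TICAM2 are shared with the read-through gene TMED7-TICAM2, so its count is uncertain. SARM1, another adaptor of this family, rose 9.43-fold (log2 change 3.24) and stayed called as higher under mitochondrial scaling (1.82). TIRAP, which brings MYD88 to TLR2 and TLR4, had 57.9 ± 11.2 normalized counts with compound 28 and 65.1 ± 10.4 with DMSO (SD, n = 3 each) and was not called (adjusted p = 0.58, limma). In the kinase complex around MYD88, IRAK4 fell by 0.83 and TRAF6, the ubiquitin ligase after it, fell by 0.55 on the log2 scale. IRAK1 had a log2 change of 0.26, called as higher with the authors' factors and as lower under mitochondrial scaling (-1.20). IKBKE, a kinase of interferon regulatory factors, fell 3.71-fold. UBE2V1, a partner of the ubiquitin-conjugating enzyme used by TRAF6, rose 2.84-fold, a call lost under ribosomal protein and mitochondrial scaling (log2 changes 0.40 and 0.05).

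Of 20 negative regulators of the pathway, 19 were tested, and 3 rose, 13 fell and 3 were not called (median -1.02, also with DUSP1, which had 0 reads with compound 28, set to its bound). DUSP1 passed the filter through the DMSO libraries alone, and without it 3 rose, 12 fell and 3 were not called (median -0.98). ATF3, a repressor of cytokine genes, fell 15.4-fold, with 17.3 ± 2.49 normalized counts with compound 28 and 281 ± 54.1 with DMSO (SD, n = 3 each; adjusted p = 3.7e-07, limma). SOCS1, which restrains cytokine signalling, fell by 3.02 on the log2 scale. It had 22, 11 and 7 reads with compound 28, against 275, 210 and 165 with DMSO, and the compound 28 libraries alone would not have passed the filter. IRAK3, an inactive kinase that blocks the MYD88 complex, fell by 0.71 on that scale. TOLLIP, which binds IRAK1 and dampens TLR2 and TLR4 signals, rose 2.59-fold, with 6883 ± 451 normalized counts with compound 28 and 2657 ± 112 with DMSO (SD, n = 3 each). It was not called under ribosomal protein scaling (log2 change 0.26) or mitochondrial scaling (-0.085).

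All 15 transcription factors of the pathway were tested, and 0 rose, 13 fell and 2 were not called (median -0.60). With upper-quartile factors 8 of them fell. NFKB1, which encodes the p50 precursor of NF-kB, fell by 2.35, RELA, the p65 subunit, by 1.22 and CEBPB, a factor of myeloid inflammatory genes, by 2.63 on the log2 scale. FOS, a subunit of AP-1, fell 8.48-fold, with 91.7 ± 29.7 normalized counts with compound 28 and 762 ± 55.3 with DMSO (SD, n = 3 each). REL and IRF7 were not called (log2 changes -0.04 and 0.07).

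Of 33 inflammatory target genes 28 have a row and 18 were tested, and 2 rose, 11 fell and 5 were not called (median -1.44). IL1B, CXCL8, CCL2 and PTGS2 passed the filter through the DMSO libraries alone and could only have been tested as lower, and without these 4 genes 2 rose, 7 fell and 5 were not called (median -0.76). IL1B, the cytokine whose receptor also uses MYD88, had 0, 1 and 0 reads with compound 28, against 82, 114 and 97 with DMSO. CD83, a surface marker of activated antigen-presenting cells, fell by 3.20 and NFKBIA, the NF-kB inhibitor made in feedback, fell by 2.67 on the log2 scale. CCL5, a chemokine, rose 2.43-fold, with 4240 ± 127 normalized counts with compound 28 and 1750 ± 144 with DMSO (SD, n = 3 each), but was not called under ribosomal protein or mitochondrial scaling (log2 changes 0.17 and -0.18). Of 9 genes of the interleukin-1 receptor family and its ligands, 6 have a row and 2 were tested. IL1RAP, the shared receptor subunit, had a log2 change of 0.40 (adjusted p = 0.028, limma) and was called as lower under ribosomal protein and mitochondrial scaling (-0.71 and -1.06). IL18 was not called (log2 change -0.21).

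**Figure D5:**
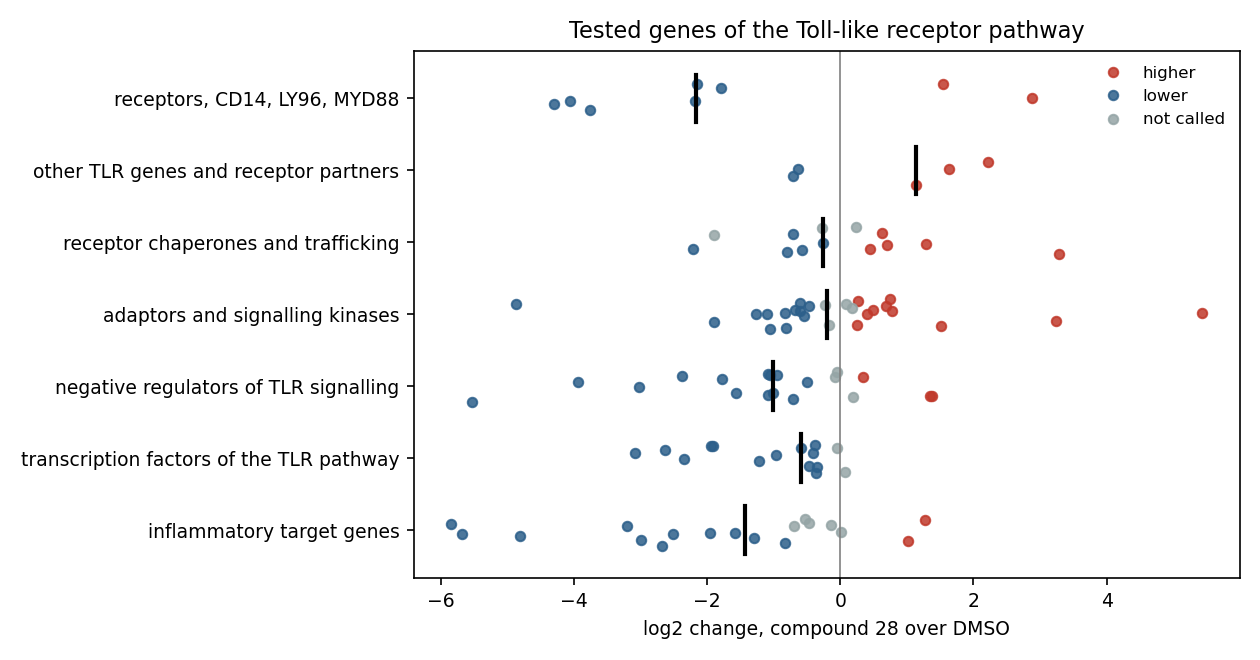
Log2 change, compound 28 over DMSO (horizontal axis), of the tested genes of 7 lists (vertical axis), in red if called higher, in blue if called lower and in grey if not called, with the authors' factors. Black bars are list medians, from -2.17 for the receptors with CD14, LY96 and MYD88 to 1.14 for other receptors and partners. The latter median is 0.25 without TLR9, which passed the filter through the compound 28 libraries alone. With TLR9 it is -0.32 under mitochondrial scaling, where each list keeps 0 to 2 higher calls.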

How the data were processed

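Reads of 3 compound 28 and 3 DMSO libraries had been counted per gene. Per the labels' protocols, RNA was taken up in TRIzol and libraries came from a stranded mRNA kit. The submitters' processing notes name HISAT2, HTSeq, SAMtools, StringTie and fastp, and the builds GRCh37 and hg19. Their versions and the strand setting of counting are not given in the sources used here. Values deposited for each library are a normalized signal, from the values a read count divided by 1 size factor per library. In each library 100% of values came out as whole reads within 0.01 read, so counts could be recovered. The table also gives, per the file headers, a log2 fold change with its error and a raw and adjusted p-value, used here only where it is named. The 5 HTSeq summary rows, 30.4% to 46.9% of reads, were left out of totals and tests.

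The main test was limma-trend (limma 3.58.1, R 4.3.3) on log2(value + 1) with the authors' factors. Genes had to pass filterByExpr (edgeR 4.0.16) on the recovered reads, which left 18278 of 32322, and p-values were adjusted by Benjamini-Hochberg over all of them. Fold changes on this scale understate the change of low genes. Alternatives numbered 19: other pseudocounts, filters and scalings, edgeR's quasi-likelihood test, DESeq2 1.42.0, the replicate number as a block, and each library left out. On the recovered reads edgeR called 6385 genes higher and 6893 lower. The limma step alone was tested on simulated data where few genes changed, unlike in these libraries, so that test does not vouch for the scaling. Ratios within a library were compared by exact two-sided permutation. Leaving each library out of the ratios, and counting apart the list genes that passed the filter through 1 group alone, were chosen after seeing the data. Genes set apart in this way had no library of the other group at the filter level. Genes with some libraries there, but fewer than the 3 needed, stayed in the counts, such as PELI1, SOCS1 and LBP. Counting intervals and floors cover counting error only, since reads carry no molecular identifiers. Exon lengths, overlaps and neighbours came from GENCODE release 29, in which 95.8% of gene rows were found by symbol, and its coordinates are not printed. Promoters came from RefSeq on GRCh38.p14.

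The genes, lists and tests were chosen with earlier results of these data known. Named genes were the 10 members and, per pathway list, the called genes with the largest rise and fall at 5 CPM or more (12 genes). For MYD88 and the most abundant receptor, the 3 genes nearest in pattern were named. Other pathway genes named are examples chosen after their values were seen.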

Additional observations from a re-analysis of the deposited data

How the results depend on the processing

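The counts of members, 2 higher and 6 lower, were the same under the other pseudocounts, TMM factors, library sizes only, recomputed median-of-ratios and upper-quartile factors, edgeR, DESeq2 and each library left out. When a mean of 5 CPM was required, of the members only TLR2, TLR4 and MYD88 were tested, so 0 were higher and 3 lower. Without a filter TLR7 was called too, which made 7 lower. Mitochondrial and ribosomal protein mRNA scaling each left 1 member higher, CD14. Over all genes, 6487 were higher and 6813 lower, against 3624 higher at 5 CPM or more, where fewer genes were tested, and 4218 higher with library sizes only. Mitochondrial scaling gave 1810 higher and 13885 lower, and ribosomal protein scaling 2245 and 12397. Leaving out 1 library gave 6030 to 6511 higher and 6205 to 6654 lower. Directions turned for LY86 (log2 change -0.32), TOLLIP (-0.085) and CCL5 (-0.18) with mitochondrial scaling and for IL1RAP with library sizes only (-0.057), mitochondrial (-1.06) and ribosomal protein scaling (-0.71). IL1RAP was also not called without any 1 of 5 libraries. Which scaling is nearest to RNA per cell was not tested.

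Same-numbered libraries of the groups deviated together with r of -0.03, 0.07 and 0.09, so the numbers were not taken to pair them. With the replicate number as a block, 6511 genes were higher and 6769 lower, and the members gave 2 higher and 6 lower. TLR5, TLR7 and TLR8 rest on few reads, which limits how well their changes are known. Reads were also low for TLR1 (10, 14 and 9) and TLR4 (20, 27 and 25) with compound 28. CD14 had 26, 26 and 21 reads with DMSO. These low counts limit the sizes of their changes and of the ratios that use them.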
